A study of Rattus norvegicus with 40 samples.

Results

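The 10 genes followed here, Atf3, Atf4, Atf5, Ddit3, Trib3, Asns, Chac1, Sesn2, Ppp1r15a and Cebpb, are regulators, targets and a feedback component of the integrated stress response. They were taken by name, as every probe set whose single gene symbol in the platform annotation is one of them, which gave 13 of the 31042 probe sets in the table. Trib3 had 3 probe sets, Sesn2 had 2 and each other gene had 1. A filter on dim probe sets, set on the mean over all arrays, left 12 of the 13, and all 10 genes kept at least 1. The probe set that did not pass was Sesn2 1396901_at, with a mean normalized intensity of 9.30, and 4 of its 40 values lay at the floor of 0.

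The integrated stress response is a switch in protein synthesis shared by several kinds of stress. Kinases that sense unfolded protein, amino acid shortage, double-stranded RNA or heme shortage phosphorylate the alpha subunit of the initiation factor eIF2, which lowers general translation while that of Atf4 and a few other mRNAs goes on or rises. ATF4 then switches on stress genes, among them other bZIP transcription factors, enzymes of amino acid supply and the phosphatase subunit encoded by Ppp1r15a, which reverses the phosphorylation. In heart muscle, oxygen and nutrient shortage is among the stresses known to engage it.

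The RNA came from cultured ventricular myocytes of newborn rats, called NRVMs in the labels, and was hybridized to Affymetrix rat genome arrays. The treatment was coverslip hypoxia, in which a coverslip over the cells limits oxygen and medium. By its label, the 0 min ischemia group had 0 min of ischemia. The sources used here give neither the strain nor the number of pups. One arm was labelled ischemia and the other ischemia+reperfusion, each at 0, 10, 30, 60 and 120 min, which makes 10 groups of 4 arrays. Within a group, each of 2 cell preparations gave a pair of duplicate arrays. The labels give neither the length of reperfusion nor what the minutes measure in that arm, so its 0 min group is only named as labelled. Nothing states that duplicates were separate cultures. The p-values measure the spread of preparation averages that remains after group means and a shared preparation shift are removed. That spread is pooled over the 10 groups and may in part be technical.

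Values are intensities after quantile normalization between arrays, and changes are differences of log2(intensity + 16) with the standard error (SE) from limma and n = 2 preparations a group. A change was called at a Benjamini-Hochberg adjusted p under 0.05 over the 18625 probe sets tested. Of the heart muscle markers, 9 of 10 were on the array and all 9 passed the filter, with a summed intensity of 80570 to 92474 over the 40 arrays. Fibroblast (8 of 8), smooth muscle (4 of 4), endothelial (6 of 7 on the array) and macrophage or leukocyte markers (9 of 10) passed it as well. In bulk RNA, fewer cells of a type and less RNA per cell cannot be told apart. By centred values over all tested probe sets, 21 of the 40 arrays correlated better with another group than with their own. For the first duplicate of preparation 1 in 0 min ischemia, the median correlation to the remaining arrays was 0.872, while every other array reached 0.960 to 0.979. In 120 min ischemia, the second duplicate of preparation 2 correlated with its own group by 0.095 and with the 60 min ischemia+reperfusion group by 0.293. In 120 min ischemia+reperfusion, the first duplicate of preparation 2 correlated with its own group by 0.140 and with 120 min ischemia by 0.438. These 2 arrays are called the 120 min pair. The labels were kept, and whether those of the pair were exchanged was not tested. Member calls at 120 min that change without the pair are given both ways. Medians, counts within gene lists and counts of arrays that do not overlap are with all arrays unless stated. The widest gap was that of the first duplicate of preparation 2 in 10 min ischemia+reperfusion, which correlated with its own group by 0.112 and with 0 min of its arm by 0.429. At 10 min of that arm, against 0 min or against ischemia, 0 members were called with all arrays and 0 with any single array left out.

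Promoter sequences are shown for Cebpb and Trib3, which were called in the arrays, and for Ppp1r15a and Chac1, which with Trib3 were the members holding a searched motif. They are the 250 bases before the start of the gene in RefSeq, assembly GRCr8, in which 9 of the 10 members matched; Atf3 had no entry. The Ppp1r15a window is chr1:105139597-105139846 on the minus strand, that of Trib3 chr3:161275534-161275783 on the minus strand, that of Chac1 chr3:126795881-126796130 on the plus strand and that of Cebpb chr3:176816755-176817004 on the plus strand. All are written 5′ to 3′ on the strand of the gene, with motif matches in capitals.
Ppp1r15a: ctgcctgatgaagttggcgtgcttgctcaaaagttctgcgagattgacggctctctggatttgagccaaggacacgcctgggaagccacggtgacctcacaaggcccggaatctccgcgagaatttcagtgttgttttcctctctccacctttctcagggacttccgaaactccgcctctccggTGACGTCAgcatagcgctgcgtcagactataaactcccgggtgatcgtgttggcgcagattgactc
Trib3: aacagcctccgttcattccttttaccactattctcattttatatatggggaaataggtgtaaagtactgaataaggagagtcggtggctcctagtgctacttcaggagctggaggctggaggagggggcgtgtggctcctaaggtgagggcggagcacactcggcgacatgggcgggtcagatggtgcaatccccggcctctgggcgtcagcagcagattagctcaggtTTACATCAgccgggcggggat
Chac1: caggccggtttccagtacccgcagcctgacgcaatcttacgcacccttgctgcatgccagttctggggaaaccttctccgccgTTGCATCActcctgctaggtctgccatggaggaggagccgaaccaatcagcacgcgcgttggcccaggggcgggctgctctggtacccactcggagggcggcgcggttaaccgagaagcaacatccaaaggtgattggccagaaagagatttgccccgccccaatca
Cebpb: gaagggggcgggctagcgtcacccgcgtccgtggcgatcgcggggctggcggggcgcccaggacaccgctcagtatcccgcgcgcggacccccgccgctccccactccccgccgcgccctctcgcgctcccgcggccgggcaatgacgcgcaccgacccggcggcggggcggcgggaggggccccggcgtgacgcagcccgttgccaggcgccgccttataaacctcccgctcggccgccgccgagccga
The search covered 3 motifs on both strands of the 300 bases from 250 before to 50 after the start. TGATGNAA, the core of the C/EBP-ATF response element read by ATF4 with C/EBP partners, was in the Trib3 window as TTACATCA at -21 to -14 and in that of Chac1 as TTGCATCA at -167 to -160, both on the opposite strand. TGACGTCA, the cAMP response element bound by CREB and ATF factors, was in the Ppp1r15a window at -66 to -59. The endoplasmic reticulum stress element was in 0 of 9. Among 33469 promoters of the same length, 3.98% held the first motif, 1.83% the second and 0.0657% the third. The first 2 motifs do not overlap each other in these windows, and a match is a description of letters only.

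Atf3, a bZIP transcription factor induced early by many stresses, made the widest excursion of the 10 genes, and it rose late in both arms. From 0 to 120 min it rose by 1.79 ± 0.43 (SE) log2 units in ischemia and by 3.05 ± 0.43 in ischemia+reperfusion. At 60 min the change was 2.20 ± 0.43 in ischemia+reperfusion, which was called, and 1.57 ± 0.43 in ischemia, which was not. Up to 30 min neither arm had a called change.

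In ischemia, the Atf3 intensities at 0 min were 856 and 1116 in preparation 1 and 544 and 646 in preparation 2. At 10 min they were 1016, 755, 399.9 and 534 in the same order, and at 30 min 1456, 1492, 616 and 688. Preparation 1 was above preparation 2 in these 3 groups, and the 3 groups overlapped. At 60 min the intensities were 2526, 2662, 1819 and 2234. At 120 min they were 2218, 2191, 2247 and 4694. Every array at 60 and 120 min lay above every array of the earlier ischemia times, and the 120 min array at 4694 is 1 of the 120 min pair.

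In ischemia+reperfusion, Atf3 stood at 472, 508, 358 and 218 at 0 min. It stood at 337, 284, 415 and 255 at 10 min, and at 253, 297, 406 and 553 at 30 min. These 3 groups overlapped and showed no common direction. At 60 min the values were 1472, 1553, 1911 and 2173, all above the 12 earlier arrays of that arm. At 120 min they were 4096, 4183, 1630.5 and 3661, and the low value of 1630.5 belongs to the other array of the 120 min pair.

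**Figure D1:**
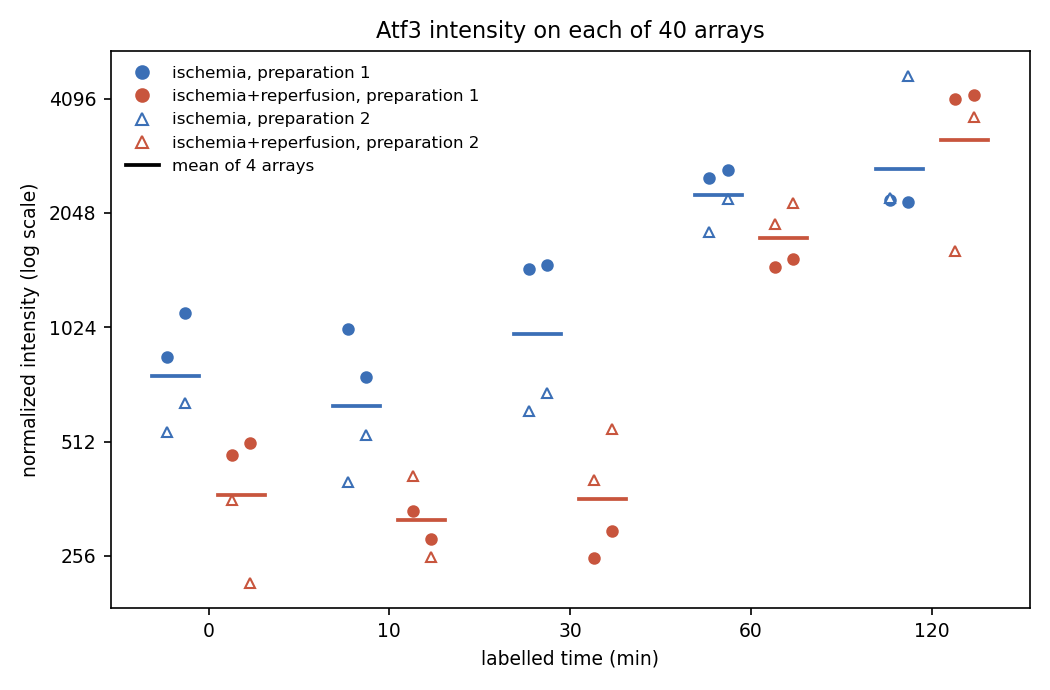
Normalized Atf3 intensity (log axis) on each of the 40 arrays by labelled time in min, with colour for the arm, symbol for the preparation and a bar for the mean of 4 arrays. Arrays at 60 and 120 min lie between 1472 and 4694, and those up to 30 min between 218 and 1492.

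Against 0 min of its arm, the 120 min change was 3.46-fold in ischemia (adjusted p = 0.0238), with 1.16 log2 units in preparation 1 and 2.42 in preparation 2. In ischemia+reperfusion it was 8.27-fold (adjusted p = 0.00631), and the preparations gave 3.04 and 3.06. The 60 min change was 4.58-fold in ischemia+reperfusion (adjusted p = 0.0222, preparations 1.60 and 2.79). In ischemia the 60 min change of 1.57 ± 0.43 had an adjusted p of 0.163 although the arrays did not overlap, with few calls over all probe sets in that comparison (0.129%). Without the 120 min pair, the 120 min changes were 1.53 ± 0.39 in ischemia (adjusted p = 0.0243) and 3.34 ± 0.39 in ischemia+reperfusion (adjusted p = 0.00166). From 60 to 120 min, Atf3 changed by 0.23 in ischemia with all arrays and by -0.04 without the pair. In ischemia+reperfusion these changes were 0.85 and 1.14, and none of them was called.

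Mean Atf3 at 0 min was lower in ischemia+reperfusion than in ischemia, a difference that was not called. At 0 min the ischemia+reperfusion arrays all lay below the ischemia arrays, by 1.01 log2 units (95% interval -1.96 to -0.05, adjusted p = 0.252). At 30 min they lay below again, with a difference of -1.40 (adjusted p = 0.151). Arrays of the arms did not overlap for 9.66% of all probe sets at 0 min and for 13.6% at 30 min. At 120 min the difference was 0.25 (95% interval -0.71 to 1.20), and without the pair 0.80 (-0.05 to 1.66). The larger rise of the ischemia+reperfusion arm, tested as the difference of the changes from 0 to 120 min, was 1.26 ± 0.61 (adjusted p = 0.504), and without the pair 1.81 (adjusted p = 0.146). None of these arm differences was called.

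Over the 10 groups, mean Atf3 on the log2 scale was lowest in ischemia+reperfusion at 10 min (8.38 ± 0.05, SD over 2 preparations). It then went through 30 min (8.56 ± 0.53) and 0 min (8.60 ± 0.55) of that arm. Next came ischemia at 10 min (9.35 ± 0.64), 0 min (9.60 ± 0.50) and 30 min (9.96 ± 0.82). The top of the order was 60 min of ischemia+reperfusion (10.79 ± 0.30), 60 min (11.17 ± 0.25) and 120 min (11.39 ± 0.39) of ischemia, and 120 min of ischemia+reperfusion (11.64 ± 0.53). A difference of 2 groups had a 95% half-width of 0.95, and 0 of the 9 steps between neighbours exceeded it, while the whole range was 3.26. For the other members the range over groups was 0.21 (Atf4) to 0.86 (Trib3 1386321_s_at).

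Cebpb, which encodes C/EBP beta, a bZIP factor that can pair with ATF4, had the smallest standard error of the members and was called at late times in both arms. It rose by 0.79 ± 0.08 at 120 min of ischemia, by 0.37 ± 0.08 at 60 min of ischemia+reperfusion and by 0.53 ± 0.08 at 120 min. In ischemia the intensities at 0 min were 1773 and 1861 in preparation 1 and 1708 and 1471 in preparation 2. At 60 min they were 2189.8, 1962, 1932 and 2114, and at 120 min 2986, 3092, 3048 and 2646. The 3 times did not overlap, with 120 min highest.

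The Cebpb change at 120 min of ischemia was 1.72-fold (adjusted p = 0.00116), and from 60 to 120 min it was 0.52 ± 0.08 (adjusted p = 0.0195, 0.0652 without the preparation block and 0.191 on the deposited scale). Both preparations gave similar sizes at 120 min, 0.74 and 0.84. In ischemia+reperfusion the 0 min values were 1911, 1987, 1540.3 and 2177, the 60 min values 2459.9, 2729, 2322 and 2312, and the 120 min values 2409.8, 3501, 2832 and 2350.0. Both later groups lay above 0 min and overlapped each other. The 60 min change had an adjusted p of 0.0336 and the 120 min change of 0.00929. Leaving out the 0 min array at 1540.3 (preparation 2, first duplicate) gave 0.25 and an adjusted p of 0.174 at 60 min, and without the block that p was 0.117. On the deposited scale the changes were 0.34 (adjusted p = 0.311) at 60 min and 0.37 (0.175) at 120 min. In the order of the 10 groups, 1 of 9 steps exceeded the 95% half-width of 0.18.

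Ppp1r15a, which encodes GADD34, the subunit that brings a phosphatase to eIF2 alpha, was not called in any comparison with all arrays. In ischemia+reperfusion it read 769.9, 604, 793 and 676 at 0 min and 974, 781, 983 and 938 at 60 min. At 120 min it read 1268, 1458, 671 and 1127. All but the 671 array, 1 of the 120 min pair, were above 0 min. The change was 0.61 ± 0.19 (adjusted p = 0.0779), with 0.98 in preparation 1 and 0.24 in preparation 2.

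In ischemia, Ppp1r15a read 1058, 751, 983 and 855 at 0 min and 923, 985, 787 and 2013 at 120 min. The single high array was the other of the pair, and the remaining 3 lay within the 0 min range. Without the pair, Ppp1r15a rose by 0.80 ± 0.13 in ischemia+reperfusion (adjusted p = 0.00697). The difference of the arms at 120 min then was 0.51 (95% interval 0.23 to 0.79, adjusted p = 0.0558), against -0.01 (-0.43 to 0.41) with all arrays. Leaving out only the 671 array, the ischemia+reperfusion change had an adjusted p of 0.0129. Over the 18 alternatives of processing and array removal that change ran from 0.43 to 0.80. Its adjusted p reached 0.312, and it was called in 3 of the 18. Over all probe sets, removal of the pair took the calls between the arms at 120 min from 0 to 669 (3.59%). The pair was picked by its correlations over these same probe sets. Neither this count nor the arm difference of Ppp1r15a without the pair is therefore independent support for a difference of the arms.

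**Figure D2:**
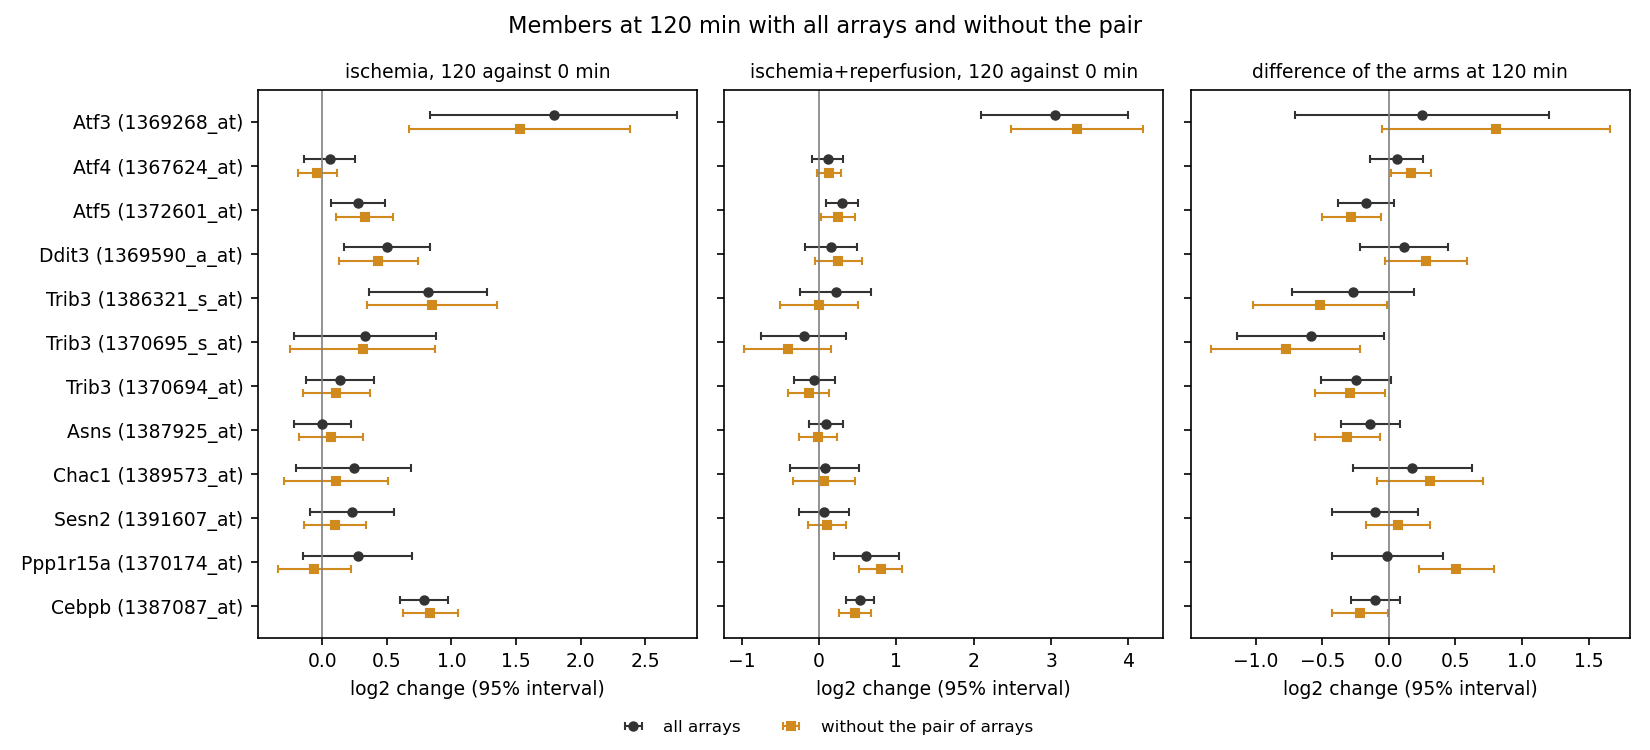
Change in log2 units with its 95% interval for the 12 tested member probe sets from 0 to 120 min in each arm, and the difference of the arms at 120 min, with all arrays (black circles) and without the 120 min pair (orange squares). Ppp1r15a moves from 0.61 to 0.80 in ischemia+reperfusion and from -0.01 to 0.51 between the arms, and the 2 Atf3 changes stay above 0.

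Atf4, the transcription factor at the centre of the response, had the narrowest range of group means of all members (0.21 log2 units). Its intensities ran from 4487 to 6610.0 over the 40 arrays. The 8 changes against 0 min lay between -0.09 and 0.12, each with an SE of 0.09, and none was called. At 120 min the 95% intervals were -0.14 to 0.26 in ischemia and -0.09 to 0.31 in ischemia+reperfusion. ATF4 is set largely by translation, which these arrays do not measure.

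Atf5, a related bZIP factor whose mRNA is also translated under eIF2 alpha phosphorylation, was lower in ischemia+reperfusion than in ischemia at 60 min. The ischemia arrays read 1071, 864, 1022 and 978, and the ischemia+reperfusion arrays 888, 767, 715 and 664. The groups overlapped only by the arrays at 864 and 888. The difference was -0.37 ± 0.10 (adjusted p = 0.0485), with -0.22 in preparation 1 and -0.53 in preparation 2. Without the preparation block the adjusted p was 0.18, and on the deposited scale the difference was -0.15 (adjusted p = 0.52). The call was also lost when any of 4 arrays was left out, the 60 min ischemia arrays at 1071 (adjusted p = 0.156) and 1022 (0.0502) and the ischemia+reperfusion arrays at 767 (0.0831) and 664 (0.0604). At the other times the difference was -0.19 at 0 min, -0.49 at 10 min, -0.36 at 30 min and -0.17 at 120 min, none called. Against 0 min, Atf5 was 0.28 higher at 120 min of ischemia (adjusted p = 0.0797) and 0.30 higher in ischemia+reperfusion (adjusted p = 0.0899). Without the 120 min pair the ischemia change was 0.33 (adjusted p = 0.045). Over the 18 alternatives of processing and array removal this ischemia change ran from 0.05 to 0.39. Its adjusted p ran from 0.0149 to 0.821, and it was called in 4 of the 18.

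Ddit3, which encodes CHOP, a bZIP factor tied to cell death under endoplasmic reticulum stress, stood just outside the threshold at 120 min of ischemia. The 0 min ischemia arrays read 530.4, 495, 687 and 574, and the 120 min arrays 783, 731, 786 and 958, with no overlap. The change was 0.50 ± 0.15 (adjusted p = 0.0507; 0.55 and 0.46 by preparation), and without the 120 min pair 0.43 (adjusted p = 0.0555). Without the outlying 0 min array it was 0.53 (adjusted p = 0.0419). Over the 18 alternatives of processing and array removal it ran from 0.27 to 0.57. The adjusted p ran from 0.00311 to 0.331, and the change was called in 8 of the 18. In ischemia+reperfusion Ddit3 began higher, at 699, 694, 903 and 874, and read 899.8, 966, 726 and 944 at 120 min. The 2 times overlapped, and the change was 0.16 ± 0.15 (adjusted p = 0.581). The starting difference of the arms was 0.46 ± 0.15 (adjusted p = 0.168), with no overlap.

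Trib3, a pseudokinase induced by ATF4 and CHOP that restrains AKT signalling, rose at 120 min of ischemia by its brightest probe set alone. On 1386321_s_at the 0 min ischemia arrays read 266, 515, 470.4 and 365. The 10 min arrays read 759, 812, 667 and 669, and the 120 min arrays 743, 647, 747 and 686. Both later groups lay wholly above 0 min. The 120 min change was 0.82 ± 0.21 (adjusted p = 0.0281) and the 10 min change 0.86 ± 0.21 (adjusted p = 0.0581).

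The lowest 0 min value of Trib3, 266, was on the array that stood apart from all others. Without that array the 120 min change was 0.59 (adjusted p = 0.0778), and without the 0 min array at 365 it was 0.73 (adjusted p = 0.0536). On the deposited scale it was 0.58 (adjusted p = 0.0749). In ischemia+reperfusion the same probe set read 619.7, 629, 443 and 356 at 0 min and 586, 615, 762 and 413 at 120 min, a change of 0.21 ± 0.21. The other probe sets did not follow it, since 1370695_s_at gave 0.33 ± 0.25 (adjusted p = 0.391) and 1370694_at 0.14 ± 0.12 (adjusted p = 0.457) at 120 min of ischemia. Between the arms at 120 min, 1370695_s_at was lower in ischemia+reperfusion on all 4 arrays, by 0.59 log2 units (95% interval -1.14 to -0.04, adjusted p = 0.69), and without the 120 min pair the difference was -0.78 (-1.34 to -0.21, adjusted p = 0.12).

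The remaining targets of ATF4 were not called at any time in either arm. Asns makes asparagine, Chac1 breaks down glutathione, and Sesn2 restrains mTORC1 when leucine is short. Asns ran from 1725 to 3348 in intensity, and its 8 changes against 0 min lay between -0.02 and 0.09. Chac1 ran from 544 to 1168, with changes from -0.05 to 0.28. At 60 min its ischemia+reperfusion arrays (1039, 1041, 1086 and 1110.5) all lay above the ischemia arrays (888, 931, 678 and 544), a difference of 0.51 ± 0.20 (adjusted p = 0.152). Sesn2 1391607_at ran from 473 to 992, with changes from -0.05 to 0.23.

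**Figure D3:**
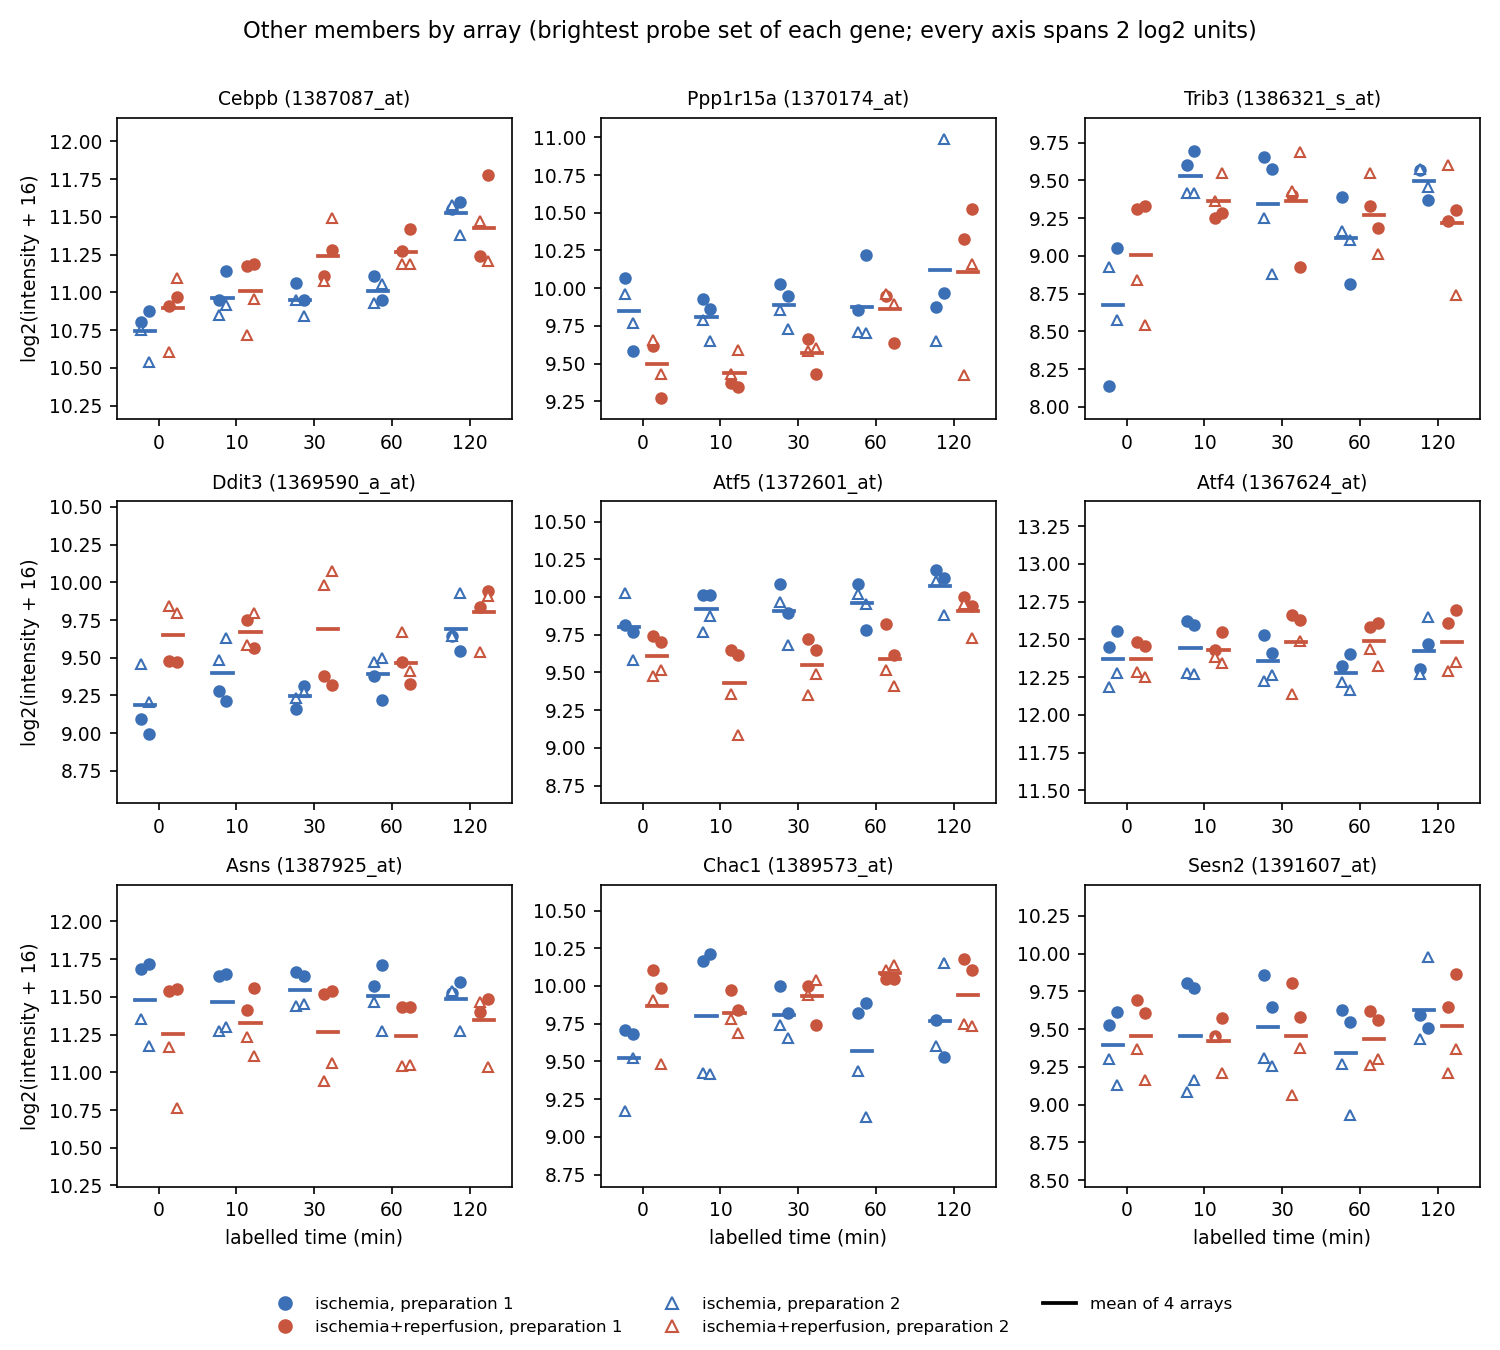
log2(intensity + 16) of the other 9 members on every array by labelled time in min, each on its brightest probe set and on an axis of 2 log2 units. Colours give the arm, symbols the preparation and bars the mean of 4 arrays; Cebpb climbs to 120 min in both arms, while Atf4 and Asns stay level.

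Of the 12 tested member probe sets, 3 were called higher and 0 lower at 120 min of ischemia (Atf3, Cebpb and Trib3), where 6.45% of all probe sets tested were called higher and 12.9% called in all. At 60 min of ischemia+reperfusion 2 were called higher (Atf3 and Cebpb), against 2.19% of all probe sets higher and 4.69% in all. The same 2 genes were called higher at 120 min, against 3.5% higher and 7.17% in all. At 10, 30 and 60 min of ischemia limma called 0, and the background called was 1.98%, 0.0966% and 0.129%. At an unadjusted p under 0.05 there were 3, 3 and 2 of 12 members, beside 22%, 15.6% and 15.8% of all probe sets. At 10 and 30 min of ischemia+reperfusion it called 0, against 0.0376% and 0.784% called over all probe sets. The unadjusted counts there were 0 and 1, beside 11.3% and 14.8%. Without the 120 min pair, Atf5 joined the members called at 120 min of ischemia and Ppp1r15a those of ischemia+reperfusion. Of all probe sets, 16.3% and 7.4% were then called in these comparisons.

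The median change of the 12 was 0.27 at 120 min of ischemia and 0.14 at 120 min of ischemia+reperfusion, beside medians of 0.00 and -0.02 over all probe sets. With all arrays, all 12 changes were above 0 in the first of these and 10 of 12 in the second. Without the 120 min pair, Atf4 (-0.04) and Ppp1r15a (-0.06) lay below 0 in ischemia. In ischemia+reperfusion, Asns (-0.02) and every Trib3 probe set (-0.0013, -0.40 and -0.14) then did. Arrays of 0 and 120 min did not overlap for 4 of 12 in ischemia (all probe sets 18.9%) and for 2 of 12 in ischemia+reperfusion (14.8%), each time with 120 min higher. From 60 to 120 min, Cebpb was the 1 member called in ischemia (background 1.54% higher, 2.74% in all) and 0 were called in ischemia+reperfusion, where 0 of all probe sets were called (unadjusted 2 of 12, and 11.1% of all). The arms share no control, but each set of 4 times shares the 0 min arrays of its arm.

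Between the arms, limma called 0 members at 0, 10, 30 and 120 min, where the background called was 0.333%, 0%, 0.532% and 0%. At an unadjusted p under 0.05 there were 3, 2, 5 and 1 of 12 members, beside 18.2%, 9.99%, 15.6% and 7.16% of all probe sets. At 60 min Atf5 was the 1 called, against 2.24% of all probe sets called lower and 5.38% in all. Arrays of the arms did not overlap for 2 of 12 at 0 min (background 9.66%), 2 at 10 min (9.41%), 4 at 30 min (13.6%), 4 at 60 min (22.3%) and 1 at 120 min (3.9%). In the difference of the changes from 0 to 120 min, 0 of 12 were called and 0 of all probe sets, and at an unadjusted p under 0.05 there were 0 of 12 and 10.4% of all.

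**Figure D4:**
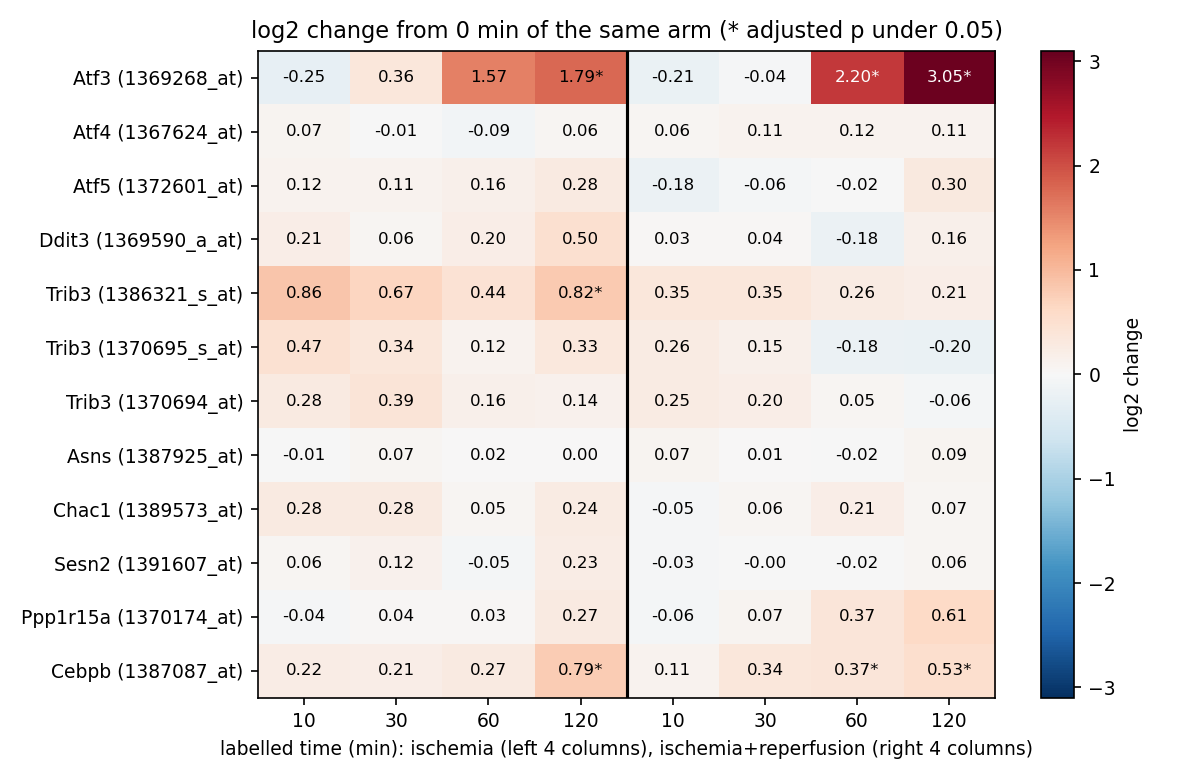
log2 change of each tested member probe set from 0 min of its own arm at the 4 later times, ischemia in the left 4 columns and ischemia+reperfusion in the right 4, with a star where the adjusted p was under 0.05. The starred cells are those of Atf3 (1.79, 2.20 and 3.05), Cebpb (0.79, 0.37 and 0.53) and Trib3 (0.82).

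The genes around the members were followed in 6 lists of 64 genes, 61 on the array and 59 tested, each on its brightest probe set. At 120 min, 9 rose and 2 fell in ischemia, and 3 rose and 2 fell in ischemia+reperfusion, beside 12.9% and 7.17% of all probe sets called. The median changes were 0.07 and 0.03. Without the preparation block the counts were 5 and 1, and 2 and 1. Without the 120 min pair they were 10 and 2, and 5 and 3. On the deposited scale, where all probe sets shifted by a median of -0.22 in ischemia and -0.12 in ischemia+reperfusion, 4 rose and 6 fell in ischemia, and 1 rose and 0 fell in ischemia+reperfusion (Ddit4). Over all probe sets at 120 min of ischemia, 1202 of 2408 calls were higher on the normalized scale and 271 of 3414 on the deposited scale.

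Of the 4 eIF2 alpha kinases, 2 fell at 120 min of ischemia. Eif2ak1, the heme-regulated kinase HRI, fell by 0.51 on the log2 scale (SE 0.09, adjusted p = 0.00765), and in ischemia+reperfusion by 0.35 (adjusted p = 0.0383). Without the outlying 0 min ischemia array the latter had an adjusted p of 0.0857, and on the deposited scale 0.0911. Eif2ak2, the double-stranded RNA sensor PKR, fell by 0.37 in ischemia (adjusted p = 0.0299, and 0.119 without the block). Eif2ak3 (PERK, the sensor of the endoplasmic reticulum) changed by -0.06 ± 0.15 and Eif2ak4 (GCN2, the sensor of uncharged tRNA) by 0.00 ± 0.11, neither called. None of the 11 eIF2 and eIF2B subunits and cofactors was called in either arm with all arrays.

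Among amino acid and one-carbon synthesis genes, 2 of 11 rose at 120 min of ischemia and 0 were called in ischemia+reperfusion. Bcat1, a branched-chain aminotransferase, rose by 0.72 ± 0.19 (adjusted p = 0.0299), and without the outlying 0 min array the change was 0.31 (adjusted p = 0.0879). Shmt2, an enzyme of mitochondrial serine use, rose by 0.29 (adjusted p = 0.049). Both were lost without the block (adjusted p = 0.0744 and 0.269) and on the deposited scale (0.079 and 0.594), where Gpt2 was called lower. Of 8 amino acid transporters, 2 rose in ischemia, with Slc6a9, a glycine transporter, at 0.85 ± 0.16 (adjusted p = 0.0102) and Slc3a2 at 0.32 (adjusted p = 0.0379; 0.216 without the block and 0.495 on the deposited scale). In ischemia+reperfusion Slc1a4, a neutral amino acid transporter, fell by 0.43 (adjusted p = 0.0179; 0.0643 without the block and 0.0688 on the deposited scale). Of 13 genes for tRNA charging and export, 0 were called in either arm.

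The list of bZIP partners and other stress targets held the largest changes around the members, with 5 of 12 higher in ischemia and 3 of 12 in ischemia+reperfusion. Ddit4, which restrains mTORC1 and is also a target of hypoxia-inducible factors, rose by 2.50 ± 0.27 in ischemia (adjusted p = 0.00116) and by 1.31 in ischemia+reperfusion (adjusted p = 0.0204). Vegfa, an angiogenic growth factor also induced by hypoxia-inducible factors, rose by 0.73 ± 0.16 (adjusted p = 0.0195) and 0.84 (adjusted p = 0.0178), and on the deposited scale the adjusted p was 0.0532 and 0.0723. Gdf15, a secreted stress cytokine, rose by 1.40 ± 0.28 in ischemia (adjusted p = 0.0121, and 0.0815 without the block), and its change in ischemia+reperfusion was 0.18. Ero1a, an oxidase of the endoplasmic reticulum, rose by 1.37 ± 0.25 in ischemia (adjusted p = 0.00943), and without the outlying 0 min array the change was 0.67 (adjusted p = 0.0955). Bbc3 (0.40, ischemia) and Eif4ebp1 (0.30, ischemia+reperfusion) completed the calls, with adjusted p-values of 0.352 and 0.406 on the deposited scale, and 0.0697 for Eif4ebp1 without the block.

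**Figure D5:**
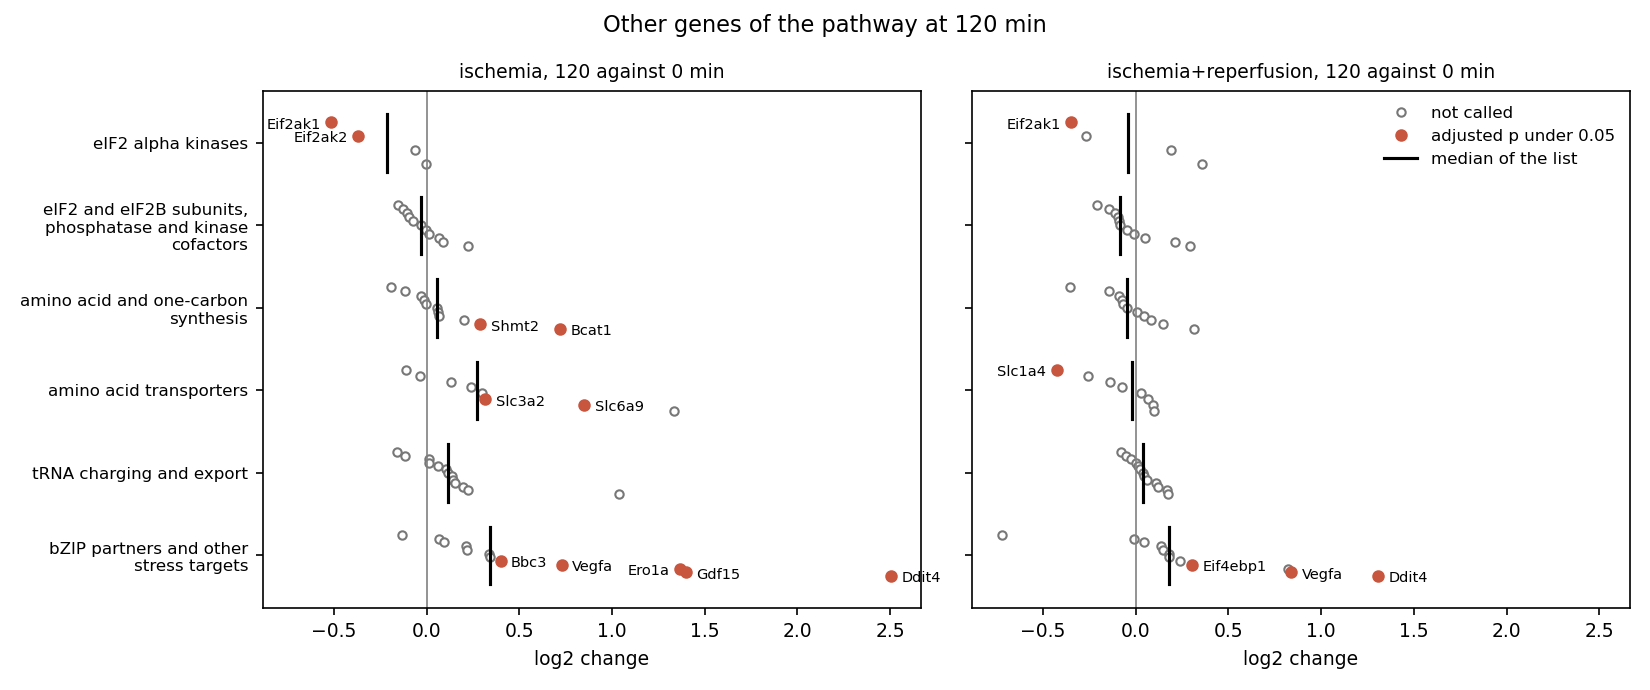
log2 change from 0 to 120 min of the 59 other pathway genes in ischemia (left) and ischemia+reperfusion (right), by list, with filled points where the adjusted p was under 0.05 and a black bar at the list median. Ddit4 lies farthest right in both panels, at 2.50 and 1.31, and the called kinases lie below 0.

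Some markers of other cell types were called at 120 min of ischemia, beside 12.9% of all probe sets. Their part in the changes of the members and lists was not tested. Of 6 endothelial markers, 3 were called higher (Pecam1, Tek and Tie1), 0 of them without the block, with a summed intensity of 1782 to 2423 at 0 min and 2100.2 to 3048 at 120 min. Fibroblast markers had 1 of 8 called higher (Pdgfra) and 0 without the block, with sums of 34962 to 40385 and 41192 to 43367. Macrophage and leukocyte markers had 0 of 9 called (sums 4877 to 5977 and 6103 to 6795), heart muscle markers 0 of 9 and smooth muscle markers 0 of 4. In ischemia+reperfusion at 120 min, Myh7 was the 1 of 9 heart muscle markers called higher and Mrc1 the 1 of 9 macrophage markers called lower. The other 3 lists had 0 called, beside 7.17% of all probe sets. Without the 120 min pair, Col3a1 in ischemia and Egfl7 and C1qa in ischemia+reperfusion were also called higher. Macrophage sums there ran from 5260 to 6469 at 0 min and from 5852 to 6972 at 120 min.

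Likeness to Atf3 was measured as Pearson's r over the 10 group means, as a description, since the groups share preparations and all tested probe sets were searched. The 6 most alike genes were Gatad2b (0.95), Lamc3 (0.94), Srsf6 (0.94), H4f3 (0.93), C8h15orf39 (0.92) and Ccl3 (0.92). Among the members Ppp1r15a came closest, at 0.92, and 15 of the 18624 other probe sets lay above it. Next were Atf5 (0.72), Cebpb (0.58), Asns (0.34) and Sesn2 (0.32). Ddit3 (0.03), Atf4 (-0.03), Chac1 (-0.04) and the 3 Trib3 probe sets (-0.24 to 0.07) did not track it. For scale, 12.7% of all probe sets had an r over 0.5. These r include the 120 min pair, on which Atf3 and Ppp1r15a deviated in the same directions, and were not recomputed without it. Without the pair, Atf3 changed by 1.53 and Ppp1r15a by -0.06 at 120 min of ischemia. At 120 min of ischemia+reperfusion they then changed by 3.34 and 0.80. Of the 6 genes, H4f3, a histone H4 gene, was called at 120 min in both arms (1.27 and 1.40), and so was Ccl3, a chemokine (0.39 and 0.54). Srsf6 was alike in shape with group means spanning only 11.61 to 11.74.

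The preparations differed in several members beyond the conditions. Asns was lower in preparation 2 in 10 of 10 groups, by a mean of 0.34 log2 units (-0.34 ± 0.14, SD over groups), which 3.03% of tested probe sets also showed. Atf4 (-0.21 ± 0.12), Sesn2 (-0.36 ± 0.22) and Cebpb (-0.13 ± 0.11) were lower in 9 of 10 groups. Ddit3 was higher in preparation 2 in 9 of 10 groups (0.20 ± 0.23). Atf3 had no common direction, with 6 groups lower and 4 higher (-0.28 ± 0.68).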

How the data were processed

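The deposited table held the authors' probe set intensities on a linear scale, and 15.8% of values were below 0 (-1725 to 17404). Values below 0 imply that some signal had been subtracted, and which is not stated. Array medians ran from 101 to 171, and the sources used here name neither the algorithm nor the scaling. Per the labels' protocols, RNA was taken on spin columns and made into biotin-labelled cRNA. Values were quantile-normalized over the 40 arrays, floored at 0 and turned into log2(value + 16), so fold changes of dim probe sets are understated. Tests took the probe sets whose mean exceeded the 40th percentile (log2 6.48, intensity 73.2), and 0.066% of their values lay at the floor. Duplicates were averaged within preparation. One linear model over all 10 groups, with preparation as a block, was fitted in limma 3.58.1 (R 4.3.3, lmFit and eBayes), with 9 residual degrees of freedom, and two-sided p-values were adjusted within each comparison. The median SE of a comparison was 0.118 and its 95% half-width 0.258, and the number of arrays, averaged to 2 preparations a group, limits this precision. The code was tested on simulated data.

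The block rests on the labels, which name the same 2 preparations in every group. Deviations by preparation correlated between groups by 0.18 in the median (range -0.18 to 0.53), and 34 of 45 pairs exceeded 0.1. Of the probe sets, 20826 had 1 gene symbol, 436 several and 9780 none here. Named are all members in every comparison, at most 6 further pathway genes by size among those called at 120 min in either arm (others called are named because their values were seen), and the 6 genes most like Atf3. The members, gene lists and tests were chosen with earlier results of these data known. Promoter windows came from the RefSeq table, and no other genome sequence was used.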

Additional observations from a re-analysis of the deposited data

Results flagged for a closer look

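Over the 12 tested member probe sets, 120 groups of 4 arrays were examined for a single array far from the other 3, and 3 were found; chance gives about 1 in 20 groups. At 120 min of ischemia, Atf3 was 12.20 on the log2 scale in preparation 2, duplicate 2, where the others were 11.11 to 11.14. At 120 min of ischemia+reperfusion, Atf3 was 10.69 in preparation 2, duplicate 1, where the others were 11.84 to 12.04. These are the 120 min pair, and the Atf3 changes with and without them stand in the results. At 60 min of ischemia+reperfusion, Trib3 1370694_at was 8.07 in preparation 1, duplicate 1, where the others were 8.17 to 8.19.

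For 2 members all 4 arrays at 60 min lay to one side of their preparation's 0 min mean in ischemia and to the other side in ischemia+reperfusion. Atf4 changed by -0.09 in ischemia and 0.12 in ischemia+reperfusion, a difference of 0.21. Ddit3 changed by 0.20 and -0.18, a difference of -0.39. Neither difference was tested.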

How the results depend on the processing

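The counts of called member probe sets were recomputed under 10 alternatives and with each array of a comparison left out, and 0 of the changes called in the main results reversed. The counts below stand without the share of all probe sets called under each setting. They therefore do not set the members apart from other probe sets. With the 40 arrays as samples the counts were 1 at 10 min and 1 at 60 min of ischemia, 5 at 120 min of ischemia and 4 at 120 min of ischemia+reperfusion. Between the arms they were then 1 at 0 min, 1 at 10 min, 3 at 30 min and 2 at 60 min. Without the preparation block 1 was called at 60 min of ischemia+reperfusion, 0 between the arms at 60 min and 0 from 60 to 120 min of ischemia (Cebpb, adjusted p = 0.0652), and the block changed no other count by more than 1.5 times. On the deposited scale 1 was called at 60 min and 1 at 120 min of ischemia+reperfusion (Atf3) and 0 from 60 to 120 min of ischemia. With arrays scaled to their medians 1 was called at 60 min of ischemia+reperfusion and 2 between the arms at 60 min. A filter at the 60th percentile gave 1 at 10 min of ischemia (Trib3). Between the arms at 60 min, a pseudocount of 4, no filter and removal of the 120 min pair each gave 0. Leaving out arrays gave 0 to 1 at 10 min of ischemia, 2 to 5 at 120 min of ischemia, 0 to 1 at 30 min and 1 to 2 at 60 min of ischemia+reperfusion, and 0 to 1 between the arms at 60 min. Without the 0 min ischemia array of preparation 2, duplicate 1, Atf5 and Ddit3 joined the 3 called at 120 min of ischemia. The cause of these shifts was not tested.

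Atf3 stayed called in all 18 alternatives at 120 min of ischemia (1.53 to 2.06), at 60 min (2.03 to 2.36) and at 120 min of ischemia+reperfusion (2.76 to 3.34), with adjusted p-values up to 0.0463, 0.0461 and 0.0135. Cebpb stayed called at 120 min of ischemia in 18 of 18, at 120 min of ischemia+reperfusion in 17 and at 60 min in 14. Trib3 at 120 min of ischemia was called in 13 of 18, and Atf5 between the arms at 60 min in 9. For ischemia changes against 0 min, the fit without the outlying 0 min array is also a single-array removal. It is counted among the 18 under both names, and Trib3 was not called in it. Deposited-scale medians of all probe sets lay between -0.23 and 0.21 over the comparisons. With 2 preparations a group, the 95% interval of a change had a median half-width of 0.258 log2 units, and smaller changes could not be told from 0 for a typical probe set.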

Other observations

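In the amino acid lists, 2 genes had large changes at 120 min of ischemia that came mainly from preparation 1 and were not called. Slc7a1, a transporter of cationic amino acids, changed by 2.28 in preparation 1 and 0.39 in preparation 2 (adjusted p = 0.068). Iars1, an isoleucyl-tRNA synthetase, changed by 2.00 and 0.08 (adjusted p = 0.101). Jdp2, a bZIP repressor related to Atf3 in sequence, read lower at 120 min than at 0 min on all arrays of ischemia+reperfusion, with a change of -0.72 ± 0.23 (adjusted p = 0.078).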
